A study of Drosophila melanogaster with 9 samples.

Results

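Neurons fire and release transmitter through channels that open when the membrane voltage changes. Sodium channels carry the rising phase of the action potential, calcium channels turn it into calcium entry at dendrites, muscle and nerve terminals, and leak and hyperpolarization-activated channels set how close a resting cell stands to firing. Each pore-forming protein works with accessory subunits that govern how much of it reaches the membrane. The 9 genes described here were taken by name, as the rows para, tipE, cac, Ca-alpha1D, Ca-alpha1T, Ca-beta, stj, na and Ih, from 17478 genes in each of 2 tables of a fly head study, and all 9 were found in both.

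Whole heads were collected from adult Drosophila aged 3 to 5 days in 3 groups of 3 libraries each. The groups were kdm5[A512P], in which proline takes the place of an alanine in the histone demethylase KDM5; kdm5[JmjC*], in which the demethylase is inactive; and wild type. No group was treated. The labels used here state neither the sex of the flies, nor how each allele is carried, nor the number of heads per library. The comparisons ask which transcripts differ from wild type with each allele, and whether the alleles differ from each other. All gene values are from the authors' deposited tables, whose log2 fold changes run mutant over wild type and carry a standard error (SE). Values of single libraries were not used here, so no spread between libraries can be shown, and nothing in the labels ties the 3 libraries of a group to separate flies. The p-values thus reflect no more than how these libraries vary, and that variation may be technical.

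In heads of both mutants, Ca-alpha1D and tipE were lower than in wild type, and the other 7 channel genes did not pass the test. Ca-alpha1D transcript was 29.7% lower in A512P heads and 33.0% lower in JmjC* heads than in wild-type heads. The tipE transcript was 19.5% lower in A512P heads and 28.8% lower in JmjC* heads. A gene is called here when its adjusted p in the authors' deposited table is under 0.05. By that rule 2 of the 9 genes were lower in A512P, where 10.8% of 11608 tested genes were lower and 10.2% higher, and 2 of 9 were lower in JmjC*, where 14.6% of 11898 tested genes were lower and 14.2% higher. None of the 9 was higher in either table (DESeq2's Wald test, 0 higher also at an unadjusted p under 0.05, against 3 lower in A512P and 4 lower in JmjC*). Heads hold many tissues, so fewer cells of a type and less RNA per cell cannot be told apart.

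All 9 transcripts were above the middle of the range of tested head genes. Levels are given as the authors' mean normalized count over the 9 libraries divided by exon length, a quantity that allows a rough comparison between genes but carries no error here. The exon length covers every annotated exon, so the level of a gene with many transcripts, such as para with 60, may read too low. The highest was stj, with 1982 per kb of exon from the authors' deposited table, followed by Ca-alpha1T with 1451, Ih with 1366, para with 1120, cac with 1111, Ca-alpha1D with 1004, Ca-beta with 886, na with 723 and tipE with 473. The median of the 11608 genes tested in both tables was 332 per kb. The highest and the lowest of the 9 were 4.19-fold apart, and para and cac stood next to each other at nearly the same level. The accessory subunits lay at both ends of the order, with stj, the calcium channel subunit, at the top and tipE, the sodium channel subunit, at the bottom.

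**Figure D1:**
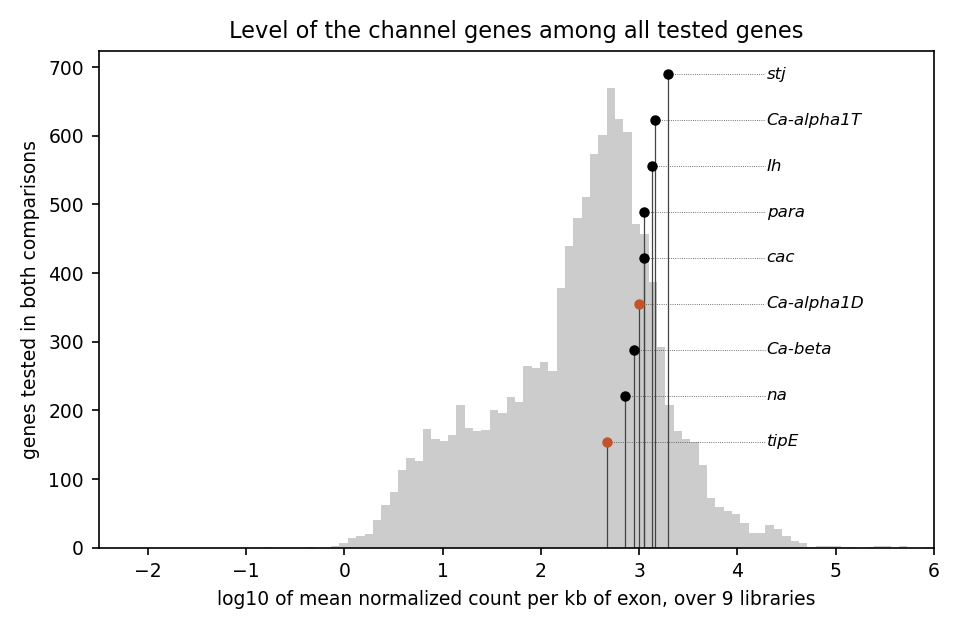
Level of the 9 channel genes on a log10 scale of mean normalized count per kb of exon over all 9 libraries (x axis), drawn over the histogram of the 11608 genes tested in both comparisons (y axis, number of genes). Vertical lines mark the genes from stj (1982 per kb) down to tipE (473 per kb); the height of a line only separates the names, and orange dots mark the 2 genes called lower in both mutants.

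Para encodes the pore of the voltage-gated sodium channel that carries action potentials in the fly (FBgn0264255 in the tables, matched by symbol to Ensembl's BDGP6.54; chromosome X, 16455027 to 16533096, minus strand). Its mean normalized count in the authors' deposited table was 18272. In A512P heads para stood at log2 -0.16 ± 0.110 (SE, adjusted p = 0.344) and in JmjC* heads at -0.14 ± 0.110 (adjusted p = 0.346) in the authors' deposited tables. The 95% interval of the ratio to wild type ran from 0.77 to 1.04 in A512P and from 0.78 to 1.05 in JmjC*, so a level 22.7% lower in A512P or 22.0% lower in JmjC* lies at the edge of the interval. Ensembl lists 60 transcripts of para, and the tables hold a single value per gene, so its splice forms cannot be told apart.

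The tipE gene (FBgn0003710; BDGP6.54, chromosome 3L, 4188499 to 4193788, plus strand) encodes a membrane protein that raises the sodium current through para channels. The authors' deposited table gave it a mean normalized count of 1931 and a log2 fold change of -0.31 ± 0.106 in A512P (adjusted p = 0.0201). For JmjC* the authors' deposited table held -0.49 ± 0.106 (adjusted p = 4.65e-05). The ratio to wild type had a 95% interval of 0.70 to 0.93 in A512P and of 0.62 to 0.82 in JmjC*, both below 1. For the sodium channel, the accessory subunit thus passed the test in both mutants while the pore-forming gene did not; the difference between these 2 genes was not tested. The A512P call of tipE ended at an adjusted p threshold of 0.01.

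Among the genes of calcium channel pores, Ca-alpha1D fell in both mutants. It encodes the L-type channel of the fly, which carries calcium current in muscle and in the cell bodies and dendrites of motor neurons (FBgn0001991; BDGP6.54, chromosome 2L, 16165831 to 16190540, plus strand). At a mean normalized count of 10522, the authors' deposited tables placed it at log2 -0.51 ± 0.112 in A512P (adjusted p = 9.50e-05) and at -0.58 ± 0.112 in JmjC* (adjusted p = 3.72e-06). These are falls of 1.42-fold and 1.49-fold, with 95% intervals of the ratio to wild type of 0.60 to 0.82 and 0.58 to 0.78. Of the 9 genes, Ca-alpha1D had the most negative fold change in each table.

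The other calcium channel pores did not pass. The cac gene encodes the channel that triggers transmitter release at nerve terminals (FBgn0263111; BDGP6.54, chromosome X, 11931280 to 11985087, minus strand). With a mean normalized count of 13246, cac stood at log2 -0.13 ± 0.115 in A512P (adjusted p = 0.468) and at -0.16 ± 0.115 in JmjC* (adjusted p = 0.328) in the authors' deposited tables. Ca-alpha1T encodes the T-type channel, which opens at voltages close to rest (FBgn0264386; BDGP6.54, chromosome X, 6104085 to 6192483, minus strand). It had the highest count of the 9, 19069, and stood at log2 -0.15 ± 0.124 in A512P (adjusted p = 0.432) and at -0.07 ± 0.124 in JmjC* (adjusted p = 0.719) in the authors' deposited tables. Given these SEs, the estimate for a gene like Ca-alpha1T had to be at least 19.8% lower in A512P, or 19.0% lower in JmjC*, to be called. This bound is on the estimate and not on the true fall. For stj, which had the smallest SE, the same bound was 13.9% in A512P and 13.3% in JmjC*.

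Neither of the calcium channel accessory genes passed. Ca-beta encodes the cytoplasmic subunit that brings the pore to the membrane (FBgn0259822 in the tables, matched by symbol; BDGP6.54, chromosome 2L, 11156118 to 11203544, minus strand). The authors' deposited tables placed it at log2 -0.20 ± 0.0983 in both A512P (adjusted p = 0.133) and JmjC* (adjusted p = 0.123), with 7404 mean normalized counts. Before adjustment its p-values in the authors' deposited tables were 0.0398 in A512P and 0.0461 in JmjC*. The stj gene encodes an alpha2-delta subunit that helps to place cac at the active zone, the release site of the nerve terminal (FBgn0261041; BDGP6.54, chromosome 2R, 13805794 to 13819571, plus strand). At a mean normalized count of 12435, stj lay closest to wild type of the 9, at log2 -0.08 ± 0.0842 in A512P (adjusted p = 0.580) and -0.04 ± 0.0841 in JmjC* (adjusted p = 0.762) in the authors' deposited tables. Its 95% interval of the ratio to wild type was 0.85 to 1.06 in A512P and 0.87 to 1.09 in JmjC*.

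The na gene, narrow abdomen, encodes a sodium leak channel that supports the daily firing rhythm of clock neurons (FBgn0002917; BDGP6.54, chromosome X, 14266367 to 14277416, plus strand). The authors' deposited tables gave it 5690 mean normalized counts, with log2 -0.11 ± 0.10 in A512P (adjusted p = 0.475) and -0.20 ± 0.10 in JmjC* (adjusted p = 0.129, unadjusted p = 0.0491). Ih encodes the channel opened by hyperpolarization (FBgn0263397; BDGP6.54, chromosome 2R, 14276130 to 14300095, plus strand). With a mean normalized count of 17371, it stood at log2 -0.13 ± 0.0957 in A512P (adjusted p = 0.375) and -0.16 ± 0.0957 in JmjC* (adjusted p = 0.211) in the authors' deposited tables. Neither gene passed in either mutant.

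**Figure D2:**
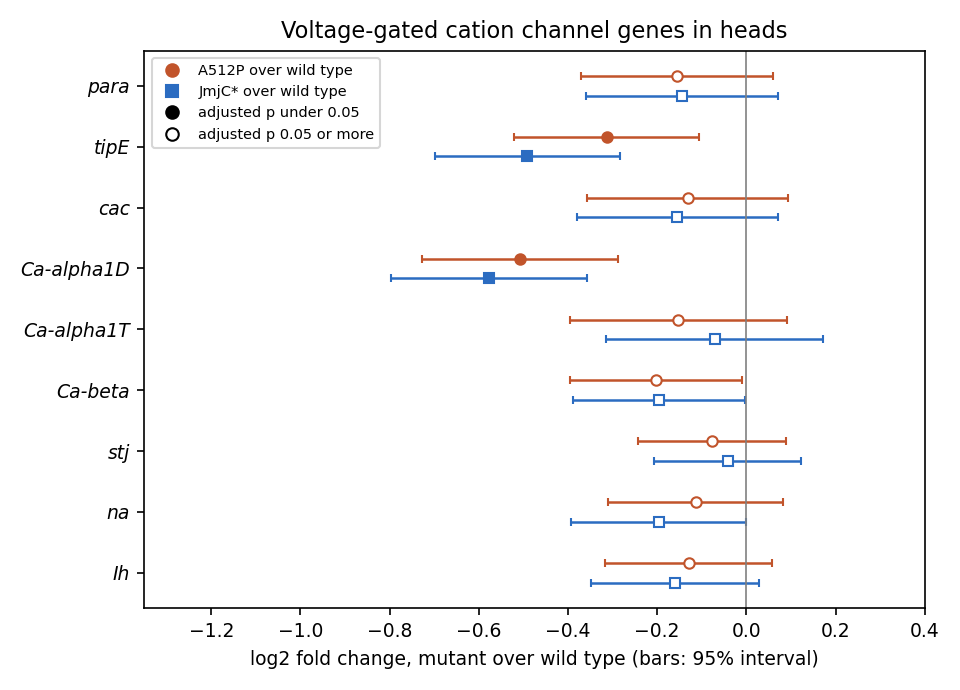
Log2 fold change of each channel gene (x axis, mutant over wild type) in A512P (orange circles) and JmjC* (blue squares) from the authors' deposited tables; bars are 95% intervals from the SE, and filled symbols have an adjusted p under 0.05. The filled symbols are those of tipE (log2 -0.31 and -0.49) and Ca-alpha1D (log2 -0.51 and -0.58), and the 7 other genes lie between -0.20 and -0.04.

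All 9 fold changes were below 0 in A512P, with a median of log2 -0.15, and all 9 were below 0 in JmjC*, with a median of -0.16. The 2 comparisons share the wild-type libraries, so the second is no independent repeat of the first. Over all tested genes the median was log2 0.003 in A512P and 0.011 in JmjC*, and 49.4% and 48.3% of genes were below 0. Abundant genes as a whole were also more often lower. Of the 3372 genes with a mean normalized count at least that of tipE, 17.9% were called lower in A512P and 25.7% in JmjC*, with medians of log2 -0.07 and -0.08.

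Most of the 9 genes are also long, a property not used to choose them. Over the 9, the median span from start to end was 24.7 kb, against 2.52 kb for the genes tested in both comparisons. The 6 that span at least 20 kb are para, cac, Ca-alpha1D, Ca-alpha1T, Ca-beta and Ih. The other 3, tipE, na and stj, span 5.3, 11.1 and 13.8 kb. Among all tested genes of at least 20 kb, 281 of 992 (28.3%) were called lower in A512P and 368 of 993 (37.1%) in JmjC*, with medians of log2 -0.15 and -0.18. Of the 6 long channel genes 1, Ca-alpha1D, was called lower in each mutant, with medians of log2 -0.15 and -0.16. Of the 3 shorter ones 1, tipE, was called lower in each mutant, with medians of log2 -0.11 and -0.20. The part of gene length and of abundance in the result was not tested. The bounds on count and span were chosen after the values were seen.

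**Figure D3:**
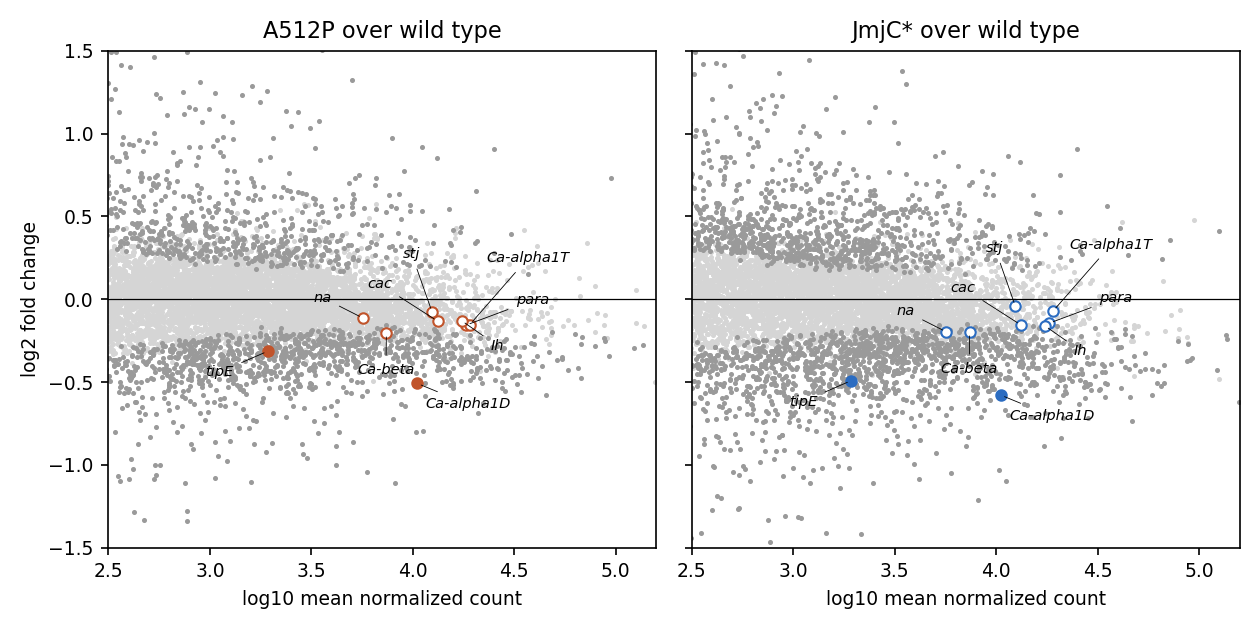
Log2 fold change (y axis) against log10 mean normalized count (x axis) for A512P (left) and JmjC* (right), showing genes within the drawn window only; dark grey points have an adjusted p under 0.05, light grey points do not, and the 9 channel genes are named, filled where called. Ca-alpha1D and tipE lie among the called genes below 0, and the other 7 lie between log2 -0.20 and -0.04.

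Para, cac, Ca-alpha1T and na are X-linked. None of these 4 was called in either mutant, and their medians were log2 -0.14 in A512P and -0.15 in JmjC*. Among all tested genes of the X, 8.09% were lower and 9.89% higher in A512P, and 11.6% lower and 16.8% higher in JmjC*, so 0 called among 4 does not set these genes apart. All tested genes of the X had medians of log2 0.013 in A512P and 0.032 in JmjC*. The medians of 2L and 3L, which hold Ca-alpha1D and tipE, were log2 0.008 and -0.002 in A512P and 0.004 and 0.008 in JmjC*. Centring on the chromosome arm did not change which of the 9 genes were called.

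Set directly against each other, the alleles did not differ past the threshold in any of the 9 genes. The test took the difference of both log2 fold changes over the root of their summed squared SEs. Both comparisons share the wild-type libraries, so this SE is an upper bound and the test may miss differences. P-values were adjusted over 11608 genes, of which 0.879% were called in either direction. All 9 direct comparisons had an adjusted p of 1, and 0 had an unadjusted p under 0.05. The widest gap was that of tipE, at log2 -0.18 ± 0.150 for JmjC* minus A512P (95% interval -0.47 to 0.12, unadjusted p = 0.237). For Ca-alpha1D the difference was -0.07 ± 0.158 (95% interval -0.38 to 0.24). Intervals of this width do not show that the alleles act alike.

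Relatives of tipE were lower as well. Flies have 4 paralogues of tipE, Teh1 to Teh4. In A512P heads 3 of the 4 fell and in JmjC* heads 4 of 4 fell by the authors' deposited tables. Among all tested genes the shares called lower were 10.8% and 14.6%. With tipE itself that makes 4 of 5 lower in A512P, with a median of log2 -0.31, and 5 of 5 lower in JmjC*, with a median of -0.33; this grouping was made after the values were seen. Teh3 stood at log2 -0.46 ± 0.116 in A512P (adjusted p = 9.22e-04) and -0.33 ± 0.116 in JmjC* (adjusted p = 0.0193) in the authors' deposited tables. Teh4 followed at -0.40 ± 0.106 in A512P (adjusted p = 0.00191) and -0.26 ± 0.105 in JmjC* (adjusted p = 0.0496), and Teh2 at -0.31 ± 0.101 and -0.36 ± 0.101 (adjusted p = 0.0133 and 0.00251), in the authors' deposited tables. For Teh1 the authors' deposited table held log2 -0.31 ± 0.0944 in JmjC* (adjusted p = 0.00539), while its value in A512P, -0.21 ± 0.0943, did not pass (adjusted p = 0.0990). With fold changes centred on 5 neuronal markers, an alternative chosen after the values were seen, Teh3 alone of the 4 was still called in A512P (adjusted p = 0.0263), and none was in JmjC* (adjusted p from 0.281 to 0.833). NaCP60E, a member of the sodium channel family beside para, did not pass in either mutant.

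Of these 5 genes, tipE and 3 paralogues lie side by side. In BDGP6.54, Teh4 (3L, 4174859 to 4178270), Teh2 (4178980 to 4188023), Teh3 (4182645 to 4184663) and tipE fill 18.9 kb of chromosome arm 3L, with tipE on the plus strand and the others on the minus strand. The end of Teh2 nearest to tipE is 475 bases from the start of tipE. Teh1 stands apart on chromosome arm 3R (9826081 to 9868120). The closest genes of other families did not pass: VhaM9.7-c, which lies within the span of Teh2, was at log2 0.00 ± 0.0965 in A512P and -0.03 ± 0.0964 in JmjC*, and CG43367, whose start is 204 bases beyond the end of tipE, at 0.14 ± 0.101 and 0.16 ± 0.101 in the authors' deposited tables. Further out, on the far side of Teh4, 2 genes were higher in both mutants in the authors' deposited tables: nab, 13926 bases from Teh4 and with a mean normalized count of only 24, at log2 1.03 in A512P (adjusted p = 1.34e-04) and 2.10 in JmjC* (adjusted p = 6.95e-18), and CG1299, 22385 bases from Teh4, at 0.60 (adjusted p = 1.05e-06) and 0.49 (adjusted p = 7.22e-05). Teh3 lies inside the span of Teh2 on the same strand, and these 2 genes share 229 exon bases, so their counts may not be independent. On its own strand tipE shares 777 exon bases with CG18675, a gene with a mean normalized count of 6 in the authors' deposited table, and Ca-alpha1D shares 248 with an antisense RNA whose mean normalized count was 0.33; the libraries were stranded, but whether counting used the strand is not given.

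**Figure D4:**
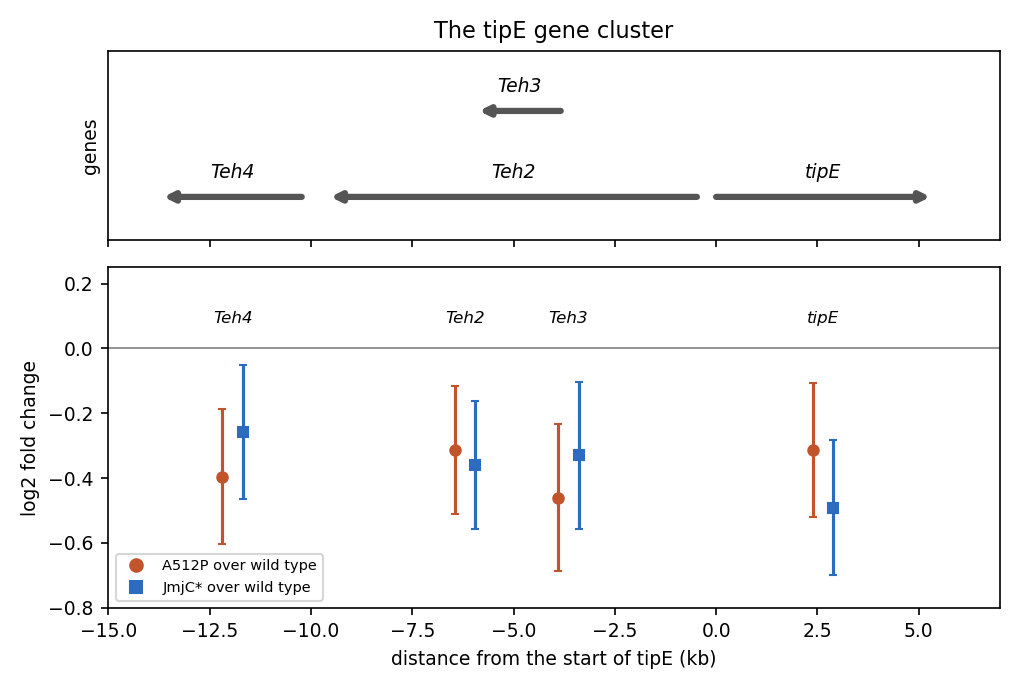
The top panel draws tipE, Teh2, Teh3 and Teh4 to scale as arrows in the direction of transcription, by distance from the start of tipE in kb (x axis). The bottom panel gives their log2 fold change over wild type (y axis) in A512P (orange circles) and JmjC* (blue squares), each placed near the middle of its gene, with 95% intervals; every interval lies below 0.

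Among partners of the leak channel na, the 3 listed genes had negative values in both tables. Of these 3, 2 passed in A512P and 1 in JmjC*, where 10.8% and 14.6% of all tested genes were lower. The large proteins unc79 and unc80, which na needs in order to function, fell in A512P (log2 -0.34 ± 0.115 and -0.28 ± 0.110, adjusted p = 0.0193 and 0.0483) and stood at -0.16 and -0.15 in JmjC* (adjusted p = 0.307 and 0.341) in the authors' deposited tables. Mid1, also called Nlf-1, an endoplasmic reticulum protein that helps na to reach the membrane, fell in JmjC* (log2 -0.36 ± 0.115, adjusted p = 0.00961) and stood at -0.24 ± 0.115 in A512P (adjusted p = 0.128) in the authors' deposited tables. The direct test did not separate the alleles for any of them, with 95% intervals for JmjC* minus A512P of -0.14 to 0.50 for unc79, -0.17 to 0.44 for unc80 and -0.44 to 0.20 for Mid1. Centred on the 5 neuronal markers these calls ended, with unc79 at log2 -0.20 (adjusted p = 0.183) and unc80 at -0.14 (adjusted p = 0.339) in A512P and Mid1 at -0.13 (adjusted p = 0.359) in JmjC*.

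Of 3 further genes listed with the alpha2-delta family of stj, CG4587, named stol in RefSeq, fell in JmjC* at log2 -0.43 ± 0.127 (adjusted p = 0.00396) and did not pass in A512P at -0.30 ± 0.127 (adjusted p = 0.0704) in the authors' deposited tables. Centred on the neuronal markers, CG4587 stood at log2 -0.20 in JmjC* and was no longer called (adjusted p = 0.174). CG42817 and CG16868 did not pass in either. Of 7 genes for presynaptic partners of the calcium channel, Rim, a scaffold that gathers channels at the active zone, fell in both A512P (log2 -0.35 ± 0.105, adjusted p = 0.00745) and JmjC* (-0.33 ± 0.105, adjusted p = 0.00872) in the authors' deposited tables. CaMKII, a kinase switched on by calcium, fell in JmjC* (log2 -0.36 ± 0.128, adjusted p = 0.0204) and stood at -0.13 ± 0.128 in A512P (adjusted p = 0.527) in the authors' deposited tables. CaMKII lies on chromosome 4, whose tested genes had a median of log2 -0.15 in JmjC*, and centred on that median it stood at -0.21 (adjusted p = 0.213); centred on the neuronal markers it stood at -0.13 (adjusted p = 0.397). Rbp, brp, Fife, CASK and Cam did not pass. None of the 3 genes that edit, splice or repress channel transcripts, Adar, mle and pum, passed in either mutant, with values from log2 -0.25 to 0.03 in the authors' deposited tables. Over these 21 other genes of the pathway, 6 were lower in A512P (28.6%) and 8 in JmjC* (38.1%), and 0 were higher in either, with medians of log2 -0.19 and -0.23. Those shares lie above the 10.8% and 14.6% of all tested genes. Tested genes that span at least 20 kb had shares of 28.3% and 37.1%, near those of the 21, some of which are that long. Of those lower in A512P, Rim spans 43.8 kb, while Teh2, Teh3, Teh4, unc79 and unc80 span 9.0, 2.0, 3.4, 15.4 and 14.7 kb. Of those lower in JmjC*, Teh1, CG4587, Mid1 and Rim span at least 20 kb, and Teh2, Teh3, Teh4 and CaMKII do not. The part of span was not tested.

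**Figure D5:**
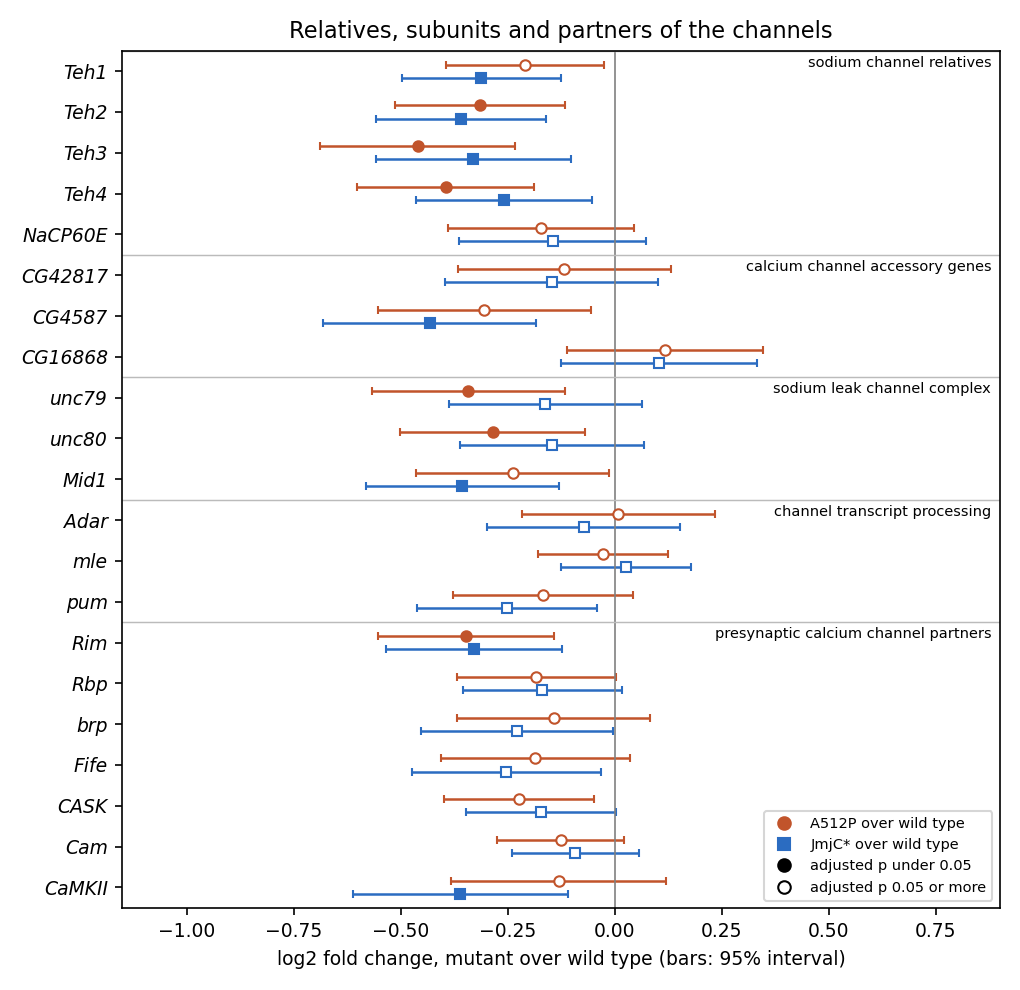
Log2 fold change (x axis, mutant over wild type) of 21 relatives, subunits and partners of the channels in A512P (orange circles) and JmjC* (blue squares) from the authors' deposited tables, with 95% intervals; filled symbols have an adjusted p under 0.05. The Teh genes lie between -0.46 and -0.21, and the transcript processing genes Adar, mle and pum carry no filled symbol.

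Genes of other channel families are set beside these by counts, with the same background of 10.8% of tested genes lower in A512P and 14.6% in JmjC*, and 28.3% and 37.1% of those of at least 20 kb. Of 15 potassium channel genes, 4 were lower in A512P (26.7%) and 6 in JmjC* (40%), with medians of log2 -0.17 and -0.20. Of 10 nicotinic acetylcholine receptor subunits, 4 were lower in A512P (40%) and 8 in JmjC* (80%), where 1 was higher, with medians of log2 -0.27 and -0.34, further below 0 than the medians of -0.15 and -0.16 of the 9 sodium and calcium channel genes. Of the nicotinic subunits lower in A512P, nAChRalpha2, nAChRbeta1 and nAChRbeta2 span 5.7, 6.6 and 5.9 kb, and nAChRalpha4 spans 80.8 kb. In JmjC* these 4 were lower too, as were nAChRalpha1, nAChRalpha3, nAChRalpha5 and nAChRalpha6, which span 63.3, 91.0, 54.2 and 92.9 kb. The part of span was not tested here either. The difference between the families was not tested.

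Some markers of the cells in a head also differed from wild type, and their part in these results was not tested. Markers of neurons, photoreceptors, glia, muscle, fat body and blood cells were all detected and none was at 0, the lowest being Fbp1 of the fat body at a mean normalized count of 16 in the authors' deposited table; levels per group were not used here. Of 5 neuronal markers (elav, nSyb, Syt1, brp and fne), 1, nSyb, was lower in each mutant, with medians of log2 -0.14 in A512P and -0.23 in JmjC*. Of these, brp is also counted, like Rim, among the 7 presynaptic partners of the calcium channel. The RNA-binding protein gene elav, which marks neurons, stood at log2 0.03 ± 0.117 in A512P and -0.03 ± 0.117 in JmjC* in the authors' deposited tables, while nSyb, a vesicle protein, was at -0.27 and -0.24. Of 5 photoreceptor markers 4 were lower in A512P and 2 in JmjC*, and of 5 glial markers 3 were lower in A512P, and 4 lower and 1 higher in JmjC*. Of 5 muscle markers 1 was lower in each mutant, of 5 fat body markers 1 was higher in A512P and 0 differed in JmjC*, and of 5 blood cell markers 2 were higher in each. Beside these counts, 10.8% of all tested genes were lower and 10.2% higher in A512P, and 14.6% and 14.2% in JmjC*. Of genes with a mean normalized count at least that of tipE, 17.9% were lower and 6.82% higher in A512P, and 25.7% and 10.1% in JmjC*. With all fold changes centred on the median of these 5 neuronal markers, Ca-alpha1D stood at log2 -0.37 in A512P (adjusted p = 0.00646) and -0.35 in JmjC* (adjusted p = 0.00556). On the same footing tipE kept its call in JmjC* (-0.26, adjusted p = 0.0313) and lost it in A512P (-0.17, adjusted p = 0.221). Rim was called in neither (adjusted p = 0.128 in A512P and 0.434 in JmjC*). Centring took the marker median as exact. In JmjC* that median was the value of brp, whose SE was 0.115. The error of the median was not counted, so these adjusted p-values may be too low.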

How the data were processed

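Messenger RNA of whole heads was sequenced in 9 stranded libraries, per the labels' protocols. The submitters' processing notes list STAR and DESeq2 without versions; for genome build, annotation and strand in counting they give nothing used here. Per the file headers, the authors deposited for each gene a mean normalized count (signal), a log2 fold change with its SE, a Wald score, a p-value and an adjusted p-value, and exon length. The mean normalized count was identical in both tables for 17478 genes. The SE did not exceed 0.231 in either table and, in that of A512P, had a median of 0.0911 at counts under 10, so fold changes appear shrunken towards 0. Depth per library is unknown.

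The deposited log2 fold changes, SEs and adjusted p-values were read as they stood; recomputed Benjamini-Hochberg values differed from the deposited ones by at most 1.72e-15. Intervals at 95%, the direct test between alleles and the alternatives were computed with Python 3.11.15, pandas 2.3.3 and SciPy 1.17.1. Positions are from Ensembl release 115 (BDGP6.54); all 9 exon lengths equalled those of the tables. Members, lists and tests were chosen with earlier results of these data known. All 9 members are described, and other pathway genes with values when called in either comparison, the rest by counts. No sequence is shown, because the reference used here holds annotation only.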

Additional observations from a re-analysis of the deposited data

How the results depend on the processing

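The 2 calls lower in JmjC* held under every alternative run. In the direct test the count of 0 held under the alternatives run for it. These were a threshold of 0.10, a mean normalized count of at least 50, and centring on all tested genes or on the chromosome arm. A further one assumed a correlation of 0.5 between both estimates. In A512P the 2 calls became 1 at an adjusted p under 0.01 and 1 when centred on 5 neuronal markers, tipE being the call lost in both; the other alternatives (a threshold of 0.10, adjustment over every gene with a p-value, a mean normalized count of at least 50, and centring on all tested genes or on the chromosome arm) left 2. Centring on the neuronal markers adds 0.14 in A512P and 0.23 in JmjC* to every log2 value, so small negative values turned positive by construction: in A512P cac (0.01), stj (0.07), na (0.03), Ih (0.01) and CaMKII (0.01), and in JmjC* para (0.08), cac (0.07), Ca-alpha1T (0.16), Ca-beta (0.03), stj (0.19), na (0.03), Ih (0.07), unc79 (0.07) and unc80 (0.08). The difference between the alleles for para turned to -0.01 when centred on the chromosome arm, from a difference near 0. Adjusted over every gene with a p-value, unc80 in A512P (adjusted p = 0.0626) and Teh4 in JmjC* (0.0628) no longer passed. At an adjusted p under 0.01, Teh2, unc79 and unc80 in A512P and Teh3, Teh4 and CaMKII in JmjC* were also lost. Centring on the neuronal markers ended 14 calls of single genes: tipE, Teh2, Teh4, unc79, unc80 and Rim in A512P, and Teh1 to Teh4, CG4587, Mid1, Rim and CaMKII in JmjC*. It was chosen after the values were seen, and the error of the marker median was not counted in its p-values. Leaving out replicates and other count tools were not run, since values per library were not used here. No paired analysis was possible because the columns used carry no replicate numbers. To be called, an estimated fall had to reach 13.3% to 19.8%, depending on the gene and mutant.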

Other observations

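Tested neighbours within 25 kb, as annotated in BDGP6.54, were counted for each of the 9 channel genes. Around Ca-alpha1D, 0 of 9 annotated features were tested in either mutant. Around tipE, 3 of 11 tested neighbours were lower in each mutant (Teh2, Teh3 and Teh4) and 0 higher. Around stj, 2 of 8 were lower and 1 higher in A512P, and 3 of 9 lower and 1 higher in JmjC*. Around Ca-beta, 1 of 7 was lower and 1 higher in A512P, and 2 of 7 lower and 1 higher in JmjC*. Around na, 1 of 8 was lower and 1 higher in A512P, and 2 of 8 lower and 1 higher in JmjC*. Around cac, 0 of 8 were lower and 1 higher in A512P, and 2 of 8 lower and 1 higher in JmjC*. Around Ca-alpha1T, 0 of 8 were lower in each mutant, with 0 higher in A512P and 1 higher in JmjC*. Around Ih, 0 of 9 were lower and 2 higher in each mutant. Around para, 0 of 10 were lower in each, with 1 higher in A512P and 2 higher in JmjC*. Among all tested genes 10.8% were lower and 10.2% higher in A512P, and 14.6% lower and 14.2% higher in JmjC*. The windows were chosen after the values were seen, and no window was tested against these shares.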
